A study of Mus musculus with 2 samples.

Results

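The genes described here are the Notch ligands Dll1, Dll4, Jag1 and Jag2, the receptors Notch1, Notch2, Notch3 and Notch4, and the targets Hey1 and Hes1. They were chosen by gene symbol, and 9 of the 10 were matched among the 19059 genes of both count matrices; Notch4 is not analysed here. The data are single-cell RNA-seq of the hippocampus of aged C57BL/6 mice that were 21 months old at the start. They then ate standard chow (control) or chow with 0.05% tomatidine, a steroidal alkaloid of tomato, for 3 months. The study used mice of both sexes, and the paper does not give the sex of the mice pooled for these libraries. Hippocampi of 4 mice were pooled per group, so each group is 1 library, no test between the groups was possible, and every interval below covers counting error only. Both groups shared the age, the strain and the assay, a probe-based kit on fixed cells from flash-frozen tissue. With 1 library per group, the effects of pooling, of library preparation and of any difference in sex cannot be told apart from the diet.

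Notch signaling runs between touching cells. A ligand of the Delta-like or Jagged family on one cell binds a Notch receptor on its neighbor, the receptor is cut, and its intracellular part enters the nucleus, where it acts with the DNA-binding protein Rbpj to turn on Hes and Hey genes, which encode transcriptional repressors. In vessels, Dll4 and Jag1 are textbook arterial endothelial genes and Notch3 is the receptor of the mural cells (pericytes and smooth muscle) that wrap the vessel. In the brain, the pathway is also known for keeping astroglia and neural stem cells in their state.

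The libraries held 15912 control and 15185 tomatidine cells, with medians of 7557 and 7891 UMIs (unique molecular identifiers, 1 per counted RNA molecule), and 15115 and 14502 cells were kept. Dentate granule-like, CA1-like and CA3-like neurons were all present, the neurons that define the hippocampus. The libraries also differed in tissue content: there were 354 control against 36 tomatidine choroid plexus epithelial-like cells, and 292 cell barcodes occurred in both. Classes were named from markers that include none of the Notch genes, which were also left out of the clustering, and the names carry "-like" because they were rebuilt here.

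The endothelial-like cluster held 290 control and 415 tomatidine cells, and its median depth was 6398 and 4605 UMIs. It was not pure. Re-clustering it whole gave a group led by pericyte genes (39 and 45 cells) and a group led by the smooth muscle genes Acta2 and Tagln (12 and 30 cells), beside groups led by neuron, astrocyte, oligodendrocyte and microglia genes. The summed level of the 8 smooth muscle markers in the cluster was 859 CPM (counts scaled to 1e6 UMIs of the class) in the control and 2385 CPM in the tomatidine library, and that of the 11 astrocyte markers was 10232 and 7523 CPM; none of these markers was at 0. For the vessel zones, cells whose marker UMIs of a screened class reached 30% of that class's own share were therefore set aside. The screened classes were mural, astrocyte, oligodendrocyte, oligodendrocyte precursor, microglia, border macrophage, excitatory neuron, interneuron and choroid plexus epithelial. Fibroblast and ependymal markers were not screened. This left 77 control and 149 tomatidine cells. They split into capillary-like (32 and 61), venous-like (6 and 30) and arterial-like cells (5 and 9) and a group of 83 that was left unnamed because neuron and red cell genes led it.

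The zone labels followed their markers. Arterial-like cells had the arterial gene Gkn3 at 1010 and 921 CPM in the control and tomatidine libraries, with the capillary transporter Mfsd2a and the venous transporter Slc38a5 at 0 UMIs in both. Capillary-like cells had Mfsd2a at 507 and 348 CPM, with 12 capillary markers raised but only 1 of them among the 10 leading genes. Venous-like cells had Slc38a5 at 1900 and 1797 CPM. The arterial-like sums were small, 9899 and 28242 UMIs, so values there have wide intervals. In the arterial-like cells fibroblast markers summed to 4041 and 8781 CPM, with 7 and 5 of the 10 at 0, smooth muscle markers to 1414 and 460 CPM, with 3 and 6 of the 8 at 0 (against 240 and 277 CPM in capillary-like cells), and oligodendrocyte markers to 7779 and 3081 CPM, with 3 and 1 of the 11 at 0. Mgp is in both the fibroblast and the arterial marker lists and was among the leading genes of the arterial-like cells. The fibroblast sum thus counts an arterial marker. The part of RNA of other classes in the arterial-like levels was not tested.

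Pericyte-like cells formed a cluster of their own, apart from the endothelial-like one, with 38 control and 39 tomatidine cells. Their pericyte gene Kcnj8 was at 504 and 394 CPM and the endothelial gene Cldn5 at 26.3 and 110 CPM. The limit on markers of screened classes was not applied to them. Astrocyte markers summed to 7005 and 13005 CPM, against 2509 and 2898 CPM in capillary-like cells. Oligodendrocyte markers summed to 8566 and 7675 CPM, against 2131 and 1862 CPM. Folds between pericyte-like and capillary-like cells below thus set an unscreened class against a screened one. The number of probes per gene may differ and is not given in the files, so CPM is compared below between classes for 1 gene, never between genes.

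**Figure D1:**
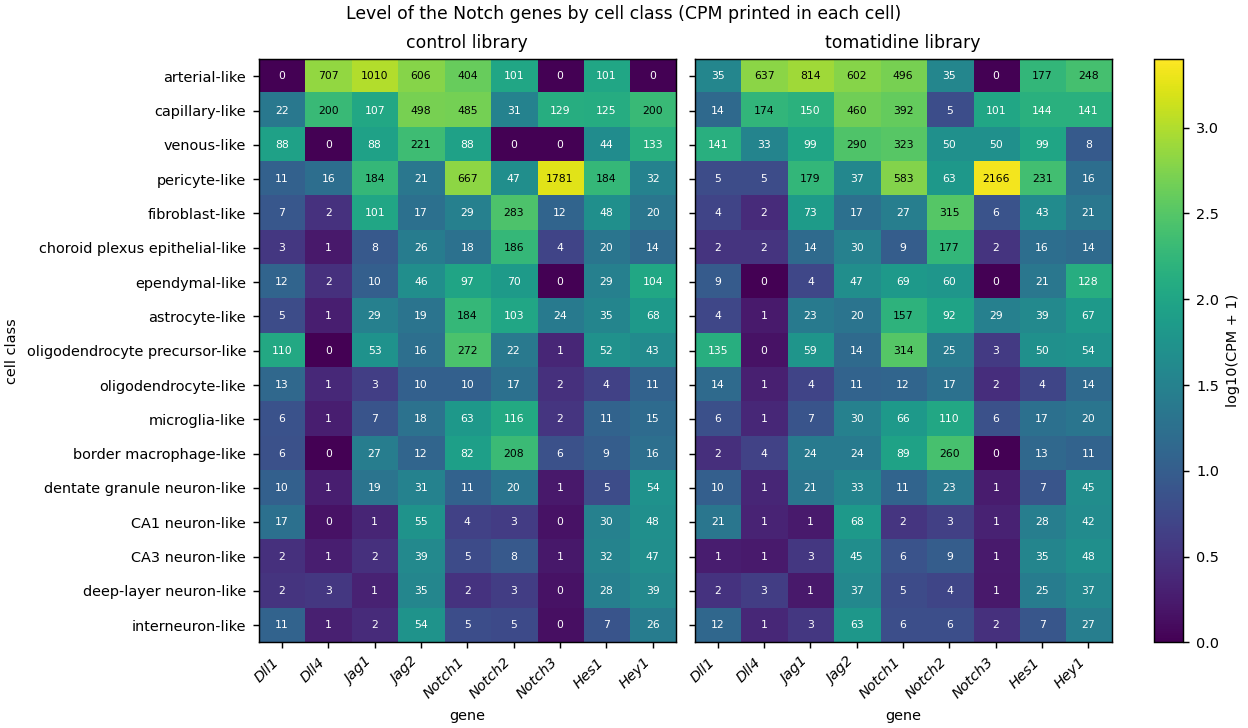
Level of the 9 Notch genes (columns) in 17 cell classes (rows) in each library. Color is log10(CPM + 1) and the printed number is CPM. Both libraries show the same bright cells: Dll4 and Jag1 in arterial-like cells, Notch3 in pericyte-like cells (1781 and 2166 CPM) and Notch2 in fibroblast-like cells and border macrophage-like cells.

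Dll4, Jag1 and Notch3 carry the contrasts between vessel classes described below, so their promoter windows are printed here beside the levels. Each runs from 250 bases before to 50 bases after the transcript start, 5′ to 3′ on the gene's strand, from RefSeq on GRCm38.p6 (mm10): Dll4 at chr2:119325534-119325833 on the plus strand, Jag1 at chr2:137116471-137116770 on the minus strand and Notch3 at chr17:32166841-32167140 on the minus strand. Capitals mark every match, on either strand, to the GC box GGGCGG or the TATA-type motif TATANA.
Dll4: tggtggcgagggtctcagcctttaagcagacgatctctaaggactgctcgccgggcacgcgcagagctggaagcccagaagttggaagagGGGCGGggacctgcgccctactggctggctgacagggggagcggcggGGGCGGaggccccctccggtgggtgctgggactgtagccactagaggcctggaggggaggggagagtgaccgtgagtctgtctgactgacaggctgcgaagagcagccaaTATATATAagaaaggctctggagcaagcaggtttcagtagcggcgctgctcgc
Jag1: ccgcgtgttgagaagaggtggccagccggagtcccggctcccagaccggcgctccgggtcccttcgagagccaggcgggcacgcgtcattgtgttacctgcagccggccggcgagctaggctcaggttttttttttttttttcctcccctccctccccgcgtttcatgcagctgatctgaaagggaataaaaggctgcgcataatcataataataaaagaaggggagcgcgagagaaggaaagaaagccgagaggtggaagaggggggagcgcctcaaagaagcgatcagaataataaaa
Notch3: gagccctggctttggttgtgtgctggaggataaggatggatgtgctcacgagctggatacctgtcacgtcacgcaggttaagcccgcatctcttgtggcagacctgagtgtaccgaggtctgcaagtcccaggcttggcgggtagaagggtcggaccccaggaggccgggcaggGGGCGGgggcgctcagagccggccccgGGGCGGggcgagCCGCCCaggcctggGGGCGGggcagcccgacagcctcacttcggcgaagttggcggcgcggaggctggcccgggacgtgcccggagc

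The Dll4 window held 2 GC boxes and 2 overlapping TATA-type matches, the Notch3 window held 4 GC boxes, and the Jag1 window held neither motif. Of all 32851 promoter windows of this length, 35.7% held a GC box and 24.7% a TATA-type match. The Rbpj core TGGGAA (in 25.6% of all windows) and the E-box CACGTG that Hey and Hes proteins can bind (in 7.15%) were in none of the 9 windows matched for 8 of the 10 genes, which says only that these letters are not in them. The windows of Hes1 and Hey1 are not printed here.

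Among the ligands, Dll4, which signals mainly through Notch1 and restrains vessel sprouting, was highest in arterial-like cells and then fell along the vessel. It is on chromosome 2 (119325784 to 119335962, GRCm38). In arterial-like cells its level was 707 CPM in the control (7 UMIs, exact 95% Poisson interval 284 to 1457) and 637 CPM in the tomatidine library (18 UMIs, 378 to 1007). In capillary-like cells it was 200 CPM (146 to 268) and 174 CPM (134 to 222). In venous-like cells it was 0 UMIs in the control, which allows up to 133 CPM (the level of 3 counts), and 33.1 CPM (9.0 to 84.8) in the tomatidine library. Both libraries had the same order, arterial-like above capillary-like above venous-like cells.

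With both libraries summed, Dll4 was 3.56-fold higher (95% interval 2.21 to 5.54) in arterial-like than in capillary-like cells, and 6.60-fold higher (2.50 to 24.6) in capillary-like than in venous-like cells. The first fold depends on how zones are drawn: assigning each cell to its highest zone marker score gave a log2 difference of 0.27 (−0.17 to 0.70) in place of 1.83 (1.14 to 2.47), with 26 of the 226 cells within 0.1 of the cut. Outside the endothelium Dll4 stayed at or below 15.8 CPM in every class in either library. At least 1 Dll4 UMI was found in 42.4% of control and 35.9% of tomatidine endothelial-like cells (thinned to 1500 UMIs per cell, 14.2% and 13.9%), against 0.303% and 0.576% of microglia-like cells (thinned, 0.0715% and 0.188%), which should lack the gene and had median depths of 3327 and 3107 UMIs.

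Jag1 (chromosome 2, 137081456 to 137116644), a Jagged ligand of arteries and smooth muscle, was at 1010 CPM (10 UMIs, 484 to 1858) and 814 CPM (23 UMIs, 516 to 1222) in the arterial-like cells of the control and tomatidine libraries. It was at 107 CPM (68.4 to 159) and 150 CPM (113 to 195) in capillary-like cells, 88.4 and 99.3 CPM in venous-like cells, and 184 and 179 CPM in pericyte-like cells. The arterial-like level stood above the other 16 classes in both libraries, 6.49-fold (4.19 to 9.86) over capillary-like cells with both libraries summed, while the intervals of pericyte-like, capillary-like and venous-like cells overlapped. By zone score the arterial-like over capillary-like log2 difference was 0.78 (0.30 to 1.24) in place of 2.70. Fibroblast-like cells had 101 and 72.8 CPM, oligodendrocyte precursor-like cells 52.7 and 58.7 CPM, and dentate granule-like neurons 19.1 and 20.9 CPM, above the 1.25 and 0.74 CPM of CA1-like neurons.

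Jag2 (chromosome 12, 112907819 to 112929776), the other Jagged ligand, had no such arterial peak. Its level was 606 and 602 CPM in arterial-like, 498 and 460 CPM in capillary-like and 221 and 290 CPM in venous-like cells of the control and tomatidine libraries. The arterial-like and capillary-like intervals overlapped, and the capillary-like level was 1.70-fold (1.22 to 2.43) the venous-like one with both libraries summed. Pericyte-like cells had 21.02 and 36.8 CPM (4 and 7 UMIs), a log2 difference of −4.04 (−5.05 to −3.17) from capillary-like cells. In neurons Jag2 ran from 30.9 CPM in control dentate granule-like to 68.5 CPM in tomatidine CA1-like neurons.

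Dll1 (chromosome 17, 15367354 to 15376872), the Delta-like ligand known from neural and somite development, was highest in oligodendrocyte precursor-like cells, at 110 CPM (98.6 to 123) and 135 CPM (120 to 152), and in venous-like cells, at 88.4 CPM (2 UMIs) and 141 CPM (17 UMIs, 82.0 to 225). With both libraries summed these 2 classes were at 121 and 132 CPM with overlapping intervals, and CA1-like neurons, next by mean level, were at 18.4 CPM. In capillary-like cells Dll1 was at 22.2 and 13.6 CPM, a log2 difference of −2.97 (−4.24 to −1.80) from venous-like cells with both libraries summed. For Dll1 the control library alone gave −1.99 (−4.60 to 1.40, on 5 and 2 UMIs), an interval that includes 0. The tomatidine library gave −3.37 (−5.17 to −1.87, on 5 and 17 UMIs). With both libraries summed, Dll1 and Dll4 thus ran in opposite directions between capillary-like and venous-like cells.

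**Figure D2:**
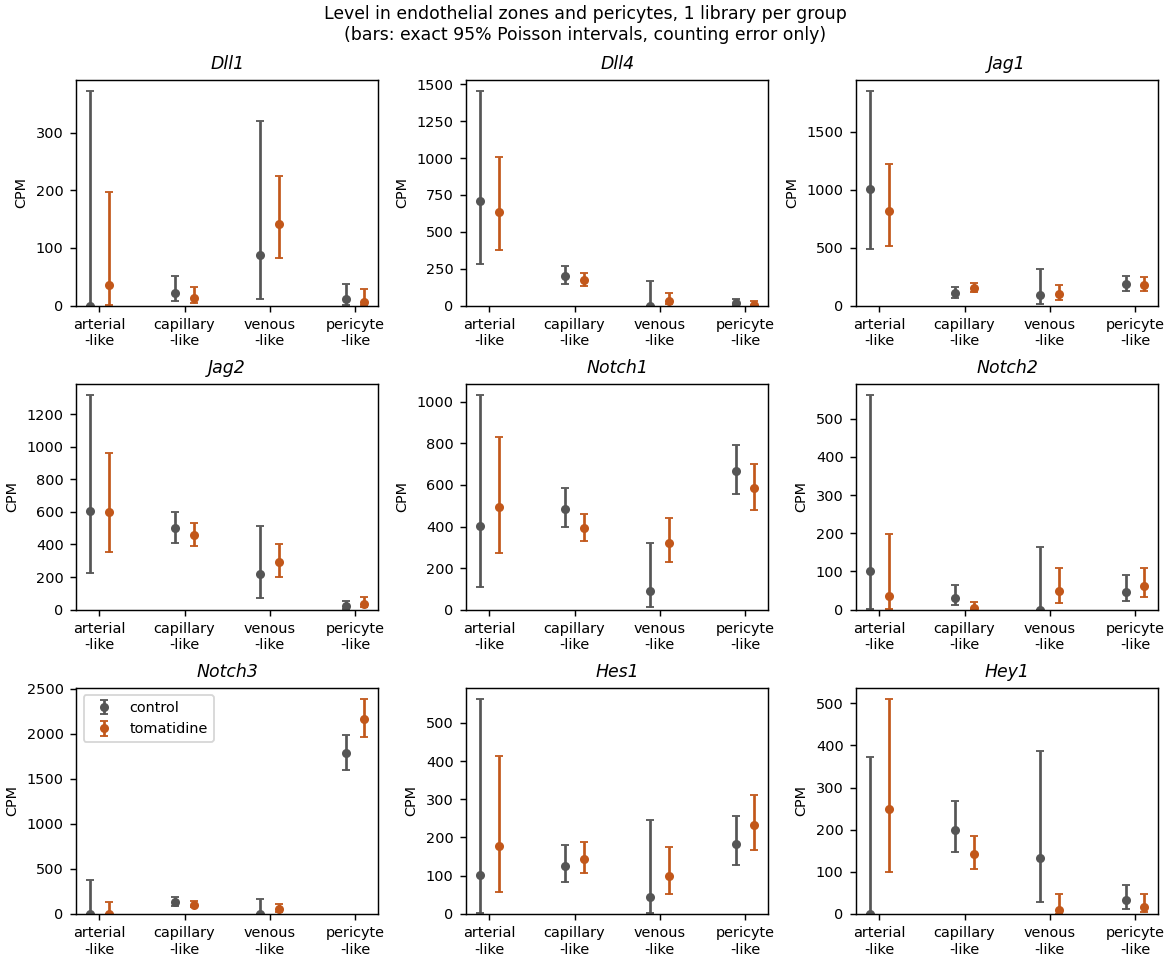
CPM of each Notch gene (y axis, linear and different for each gene) in arterial-like, capillary-like, venous-like and pericyte-like cells, gray for the control and orange for the tomatidine library, with exact 95% Poisson bars. Dll4 and Jag1 are highest in arterial-like cells, Notch3 stands out in pericyte-like cells, and the bars of the 2 libraries overlap in nearly all places, with the widest bars in the 5 and 9 arterial-like cells.

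Among the receptors, Notch3 (chromosome 17, 32120820 to 32166852), the receptor that mural cells need for their identity and survival, was at 1781 CPM (339 UMIs, 1597 to 1982) and 2166 CPM (412 UMIs, 1962 to 2385) in pericyte-like cells. At least 1 UMI was found in 37 of 38 control and 38 of 39 tomatidine pericyte-like cells (thinned to 1500 UMIs, 89.6% and 91.4%), against 0.809% and 1.84% of microglia-like cells. In capillary-like cells Notch3 was at 129 and 101 CPM, 17.7-fold (13.8 to 23.1) below pericyte-like cells with both libraries summed. Those capillary-like cells carried 3977 and 4065 CPM of mural markers, and without cells holding UMIs of at least 3 mural markers their Notch3 fell to 32.0 CPM (4 UMIs) and 7.71 CPM (1 UMI). Arterial-like cells had 0 Notch3 UMIs in both libraries, which allows up to 303 and 106 CPM.

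The smooth muscle-led cells inside the endothelial-like cluster had 842 and 935 CPM of Notch3 in the control and tomatidine libraries, and its pericyte-led cells had 823 and 882 CPM. Both groups lay above capillary-like and below pericyte-like cells. The whole endothelial-like cluster had 339 and 381 CPM of Notch3, and without cells holding at least 3 mural markers it had 31.7 and 6.82 CPM. Among other classes, astrocyte-like cells had 24.2 and 29.4 CPM, and neuronal classes 1.98 CPM or less. The 3 genes whose levels over 17 classes were most like Notch3 (Pearson r of log2(CPM + 1), both libraries averaged) were Heyl (0.95), itself a Hey family target, Abcc9 (0.94), a pericyte potassium channel subunit, and Ndufa4l2 (0.93).

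**Figure D3:**
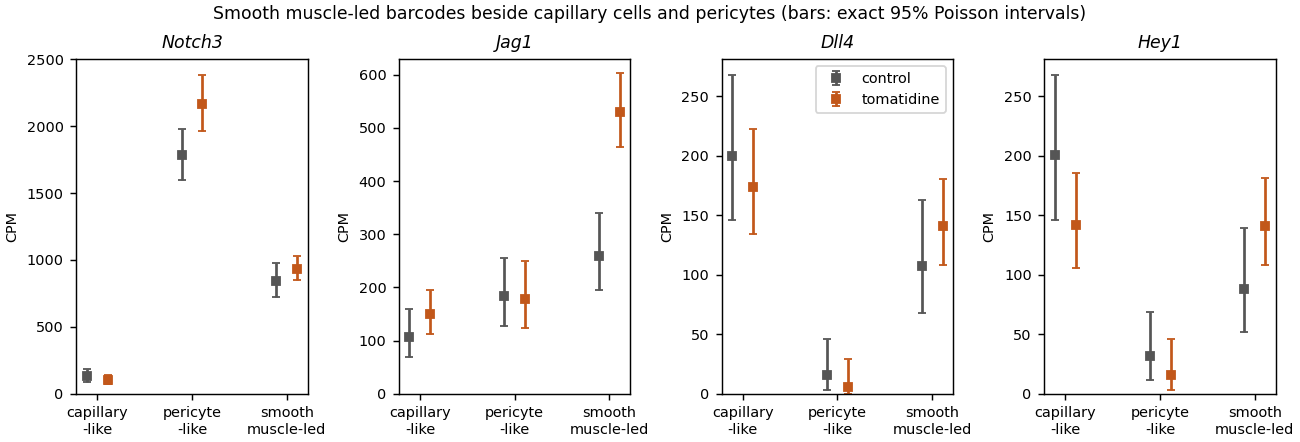
CPM (y axes, linear, 1 scale per gene) of Notch3, Jag1, Dll4 and Hey1 in capillary-like cells, pericyte-like cells and the smooth muscle-led cells of the endothelial-like cluster, gray for control and orange for tomatidine, with exact 95% Poisson bars. Notch3 of the smooth muscle-led cells lies between the other classes, their Jag1 reaches 530 CPM in the tomatidine library, and their Dll4 is at 108 and 141 CPM.

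Notch1 (chromosome 2, 26457903 to 26516663), the main endothelial receptor and also a receptor of glia and their precursors, was found in vessel and glial classes. Pericyte-like cells had 667 and 583 CPM in the control and tomatidine libraries, capillary-like cells 485 and 392 CPM, and arterial-like cells 404 and 496 CPM. With both libraries summed the intervals of pericyte-like and arterial-like cells overlapped, and so did those of arterial-like and capillary-like cells, while the pericyte-like level was 1.46-fold (1.22 to 1.76) the capillary-like one. Oligodendrocyte precursor-like cells followed with 272 and 314 CPM, venous-like cells with 88.4 and 323 CPM (2 and 39 UMIs) and astrocyte-like cells with 184 and 157 CPM. Mature oligodendrocyte-like cells had 9.86 and 11.8 CPM, and pyramidal and interneuron classes stayed at or under 6.45 CPM. The 3 genes most like Notch1 over the classes were Cdkn2c (r = 0.92), Als2cl (0.90) and Nrarp (0.89), the last a known target that feeds back on the pathway.

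Notch2 (chromosome 3, 98013527 to 98150361), a receptor known from bile duct, kidney and immune cells, was highest outside the vessel wall. It was at 283 and 315 CPM in fibroblast-like cells, 208 and 260 CPM in border macrophage-like cells, 186 and 177 CPM in choroid plexus epithelial-like cells, 116 and 110 CPM in microglia-like cells and 103 and 92.0 CPM in astrocyte-like cells. With both libraries summed, no neighbors in this order had overlapping intervals. In capillary-like cells Notch2 was at 31.1 CPM (7 UMIs) and 5.44 CPM (2 UMIs). Pericyte-like cells had 47.3 and 63.1 CPM, on 9 and 12 UMIs.

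Of the targets, Hey1 (chromosome 3, 8663359 to 8667256), which is switched on by Notch in arterial development, was at 200 and 141 CPM in capillary-like cells. In arterial-like cells it was 0 UMIs in the control and 248 CPM (7 UMIs, 99.7 to 511) in the tomatidine library. In venous-like cells it was 133 CPM (3 UMIs) and 8.28 CPM (1 UMI). With both libraries summed the capillary-like level was above the venous-like one by a log2 difference of 2.55 (1.15 to 4.46). The control library alone gave 0.59 (−1.04 to 2.93), an interval that includes 0, and the tomatidine library 4.09 (1.55 to 9.42). Ependymal-like cells had 104 and 128 CPM, astrocyte-like cells 67.9 and 67.1 CPM, and the 4 excitatory neuron classes lay between 36.8 and 53.9 CPM. Pericyte-like cells had only 31.5 and 15.8 CPM, with 6 and 3 UMIs.

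Hes1 (chromosome 16, 30064384 to 30067796), a repressor that keeps progenitors from differentiating, was highest in vessel cells. It was at 184 and 231 CPM in pericyte-like, 101 and 177 CPM in arterial-like, 125 and 144 CPM in capillary-like and 44.2 and 99.3 CPM in venous-like cells, and the intervals of neighbors in that order overlapped. Pericyte-like cells still had 1.52-fold (1.10 to 2.10) the capillary-like level with both libraries summed. Oligodendrocyte precursor-like cells had 51.7 and 49.9 CPM and astrocyte-like cells 34.6 and 39.4 CPM. Hes1 and Hey1 differed in granule-like neurons, where Hes1 was at 5.09 and 6.91 CPM, under its 30.3 and 27.5 CPM in CA1-like neurons, while Hey1 was at 53.9 and 45.1 CPM in granule-like and 48.3 and 42.5 CPM in CA1-like neurons.

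The genes most like the other members over the classes were Flt4 (r = 0.93), Ushbp1 (0.93) and AU021092 (0.93) for Dll4, Rhbdf1 (0.92), Poglut3 (0.90) and Ebf1 (0.90) for Jag1, and Kctd10 (0.94), Nrbp1 (0.90) and Tdrp (0.90) for Jag2. For Hes1 they were Prss23 (0.88), Mylk (0.88) and Nr1d1 (0.87), for Hey1 Sorbs2 (0.86) and Lrrc49 (0.84), for Notch2 Lgals3bp (0.87), Kmt5c (0.87) and Smo (0.86), and for Dll1 Setd5 (0.80), Ccnk (0.79) and Copb1 (0.79). These are descriptions over 17 class means that share 2 libraries.

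The second question was whether the tomatidine library differed from the control library within a class. A gene was called when it had at least 50 UMIs in a class over both libraries and its CPM differed by at least 1.5-fold. Over 14 classes with at least 4 measurable members there were 93 pairs of member and class, and 5 of them were called, 4 higher and 1 lower in the tomatidine library. Over all genes, the share called ran from 2.16% in dentate granule-like neurons to 20.1% in choroid plexus epithelial-like cells. Capillary-like cells are also part of the endothelial-like class, so their pairs are not separate from its pairs.

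In endothelial-like cells 0 of the 9 members were called, against 5.58% of all genes tested there. The Notch1 level was 335 and 303 CPM in the control and tomatidine libraries (log2 ratio −0.14, 95% interval −0.26 to −0.02). Dll4 was at 110 and 105 CPM (−0.07, −0.27 to 0.14). Jag1 was at 109 and 141 CPM (0.37, 0.18 to 0.57) and Jag2 at 266 and 299 CPM (0.17, 0.04 to 0.30), while Hey1 (101 and 95.2 CPM) and Hes1 (111 and 116 CPM) had intervals that include 0. Notch3 had a ratio of 0.17 (0.06 to 0.28). Jag1, Jag2 and Notch3 were thus higher in the same library as the smooth muscle markers, of which Acta2 was at 136 and 583 CPM, and the part of these markers in the result was not tested.

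In the 226 endothelial-like cells with little RNA of the screened classes, 2 of 7 measurable members were called, against 12.9% of all genes. Hes1 was at 81.3 and 134 CPM there (log2 ratio 0.73, 0.27 to 1.20) and Jag1 at 91.9 and 140 CPM (0.61, 0.17 to 1.05), both higher in the tomatidine library. Hey1 was at 124 and 90.3 CPM (−0.46, −0.91 to −0.01), so the 2 targets had ratios of opposite sign. This set of cells also differed in makeup, with 6 control and 30 tomatidine venous-like cells. It also held the unnamed group led by neuron and red cell genes, with 34 control and 49 tomatidine cells. Capillary-like cells gave 224774 of its 750715 control UMIs and 367785 of its 885878 tomatidine UMIs, so these levels are not those of the named zones alone. Smooth muscle markers were at 222 and 387 CPM (2 and 1 of 8 at 0). Fibroblast markers, which include the arterial marker Mgp, were at 785 and 1151 CPM (none of 10 at 0). The part of these differences in the result was not tested. Leaving out endothelial-like cells with at least 3 mural markers kept 148 control and 215 tomatidine cells. No share of all genes past 1.5-fold was computed for them. The level of 3 counts rose from 0.889 to 4.14 CPM in the control and from 0.778 to 2.92 CPM in the tomatidine library. The filter thus removed a larger part of the UMIs than of the cells, and the part of depth in the result was not tested. Hes1 was at 123 and 111 CPM (−0.14) in the kept cells. Dll4, at 137 and 87.7 CPM (−0.64, −1.07 to −0.21), passed 1.5-fold and was lower in the tomatidine library. In the same setting the Jag2 ratio turned to −0.30 (−0.55 to −0.04) and the Notch3 ratio to −2.22 (−3.68 to −0.95, on 23 and 7 UMIs), while that of Jag1 was 0.41 (−0.08 to 0.90).

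In capillary-like cells alone, 0 of 7 members were called, against 10.7% of all genes, and every interval included 0. The ratios ran from −0.50 for Hey1 (−1.11 to 0.11) to 0.49 for Jag1 (−0.23 to 1.24), so differences of this size were not detectable at this depth. Dll4 had a log2 ratio of −0.20 (−0.77 to 0.38), and −1.20 (−2.22 to −0.25, on 31 and 14 UMIs) without cells holding at least 3 mural markers, and Notch1 had a ratio of −0.31 (−0.68 to 0.06). Arterial-like and venous-like sums were too small in the control library for a comparison of the groups.

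In pericyte-like cells 0 of 4 members were called, against 19.1% of all genes. Notch3 was higher in the tomatidine library by a log2 ratio of 0.28 (0.07 to 0.49), and the pericyte-led cells of the endothelial-like cluster gave 0.10 (−0.06 to 0.26). Astrocyte markers differed between the pericyte-like sums, at 7005 and 13005 CPM, while mural markers were at 30804 and 30626 CPM.

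In astrocyte-like cells 0 of 8 members were called, against 3.9% of all genes, but the depth there (12850831 and 16071946 UMIs) resolved small differences. Notch1 went from 184 to 157 CPM (log2 ratio −0.23, −0.31 to −0.15), Notch2 from 103 to 92.0 CPM (−0.16, −0.27 to −0.05) and Jag1 from 29.2 to 23.5 CPM (−0.32, −0.53 to −0.10). Hes1 went the other way, from 34.6 to 39.4 CPM (0.19, 0.01 to 0.37), as did Notch3, from 24.2 to 29.4 CPM (0.28, 0.07 to 0.49), and Hey1 had a ratio of −0.02 (−0.15 to 0.11). With the mean over cells in place of the sum, the Notch1 ratio was −0.14 and the Notch2 ratio −0.04. The class joins 5 clusters whose sizes differed between the libraries, from 1192 control and 1223 tomatidine cells in the largest to 318 and 574 in the next, and its oligodendrocyte markers were at 7457 and 5732 CPM (none of 11 at 0); the part of either in the result was not tested.

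In oligodendrocyte precursor-like cells 0 of 7 members were called, against 5.71%, with Notch1 at 272 and 314 CPM (0.21, 0.06 to 0.36) and Dll1 at 110 and 135 CPM (0.30, 0.07 to 0.53). Oligodendrocyte markers in these precursor-like sums were at 14504 and 8249 CPM (none of 11 at 0), and their part in the result was not tested. The Notch1 ratios of astrocyte-like and oligodendrocyte precursor-like cells thus had opposite signs; with 1 library per group that difference was not tested.

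In microglia-like cells 2 of 6 members were called, against 5.7% of all genes. Jag2 was at 18.1 CPM (77 UMIs) and 29.97 CPM (105 UMIs), a log2 ratio of 0.73 (0.29 to 1.17), and Hes1 at 11.0 CPM (47 UMIs) and 16.8 CPM (59 UMIs), a log2 ratio of 0.61 (0.03 to 1.20). Over the alternative settings these ratios ran from 0.56 to 0.77 for Jag2 and from 0.32 to 0.87 for Hes1. Both levels are low for these genes, and a Jag2 UMI was found in 68 of 989 and 82 of 868 cells. RNA of other classes in the microglia-like sums differed too: astrocyte markers were at 3219 and 4374 CPM, mural markers at 44.1 and 95.6 CPM, and choroid plexus markers at 1036 and 86.8 CPM, with the 9 microglia markers at 28318 and 27972 CPM. The part of that RNA in the result was not tested.

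The remaining 3 called pairs were at very low levels. Notch1 in deep-layer neuron-like cells was at 2.13 CPM (33 UMIs) and 5.03 CPM (69 UMIs), a log2 ratio of 1.24 (0.62 to 1.89) and 1 of 7 members called against 3.97%; up to 10 of its UMIs were in 1 cell, and under stricter cell thresholds the ratio was −0.44. Jag1 in interneuron-like cells was at 1.58 CPM (21 UMIs) and 2.56 CPM (31 UMIs), a log2 ratio of 0.69 (−0.15 to 1.57) and 1 of 7 called against 3.54%; it was −0.63 with the mean over cells and −1.01 under the stricter thresholds. Notch1 in choroid plexus epithelial-like cells was at 17.6 CPM (49 UMIs) and 9.17 CPM (4 UMIs), a log2 ratio of −0.94 (−2.87 to 0.51) and 1 of 4 called against 20.1%, and it was 1.07 with the mean over cells. Only the first of these had an interval that left out 0.

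In the other classes no member was called: 0 of 6 in fibroblast-like cells (against 6.9% of all genes), 0 of 8 in oligodendrocyte-like cells (4.51%), 0 of 9 in dentate granule-like neurons (2.16%), 0 of 6 in CA1-like neurons (5.8%) and 0 of 5 in CA3-like neurons (4%). Within these, Hey1 was lower in the tomatidine library in granule-like neurons (53.9 to 45.1 CPM, log2 ratio −0.26, −0.35 to −0.16) and in CA1-like neurons (−0.19, −0.34 to −0.03). The other target, Hes1, was higher in granule-like neurons (5.09 to 6.91 CPM, 0.44, 0.18 to 0.70; 0.13 under stricter cell thresholds), as was Notch2 (19.97 to 22.7 CPM, 0.19, 0.05 to 0.32). Jag2 was higher in CA1-like neurons (54.6 to 68.5 CPM, 0.33, 0.20 to 0.46) and interneuron-like cells (54.0 to 62.8 CPM, 0.22, 0.07 to 0.37), and Dll1 was higher in CA1-like neurons (16.8 to 20.8 CPM, 0.31, 0.07 to 0.54). Hey1 was also higher in oligodendrocyte-like cells (10.8 to 13.7 CPM, 0.34, 0.06 to 0.62). Jag1 was lower in fibroblast-like cells (−0.48, −0.80 to −0.15).

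**Figure D4:**
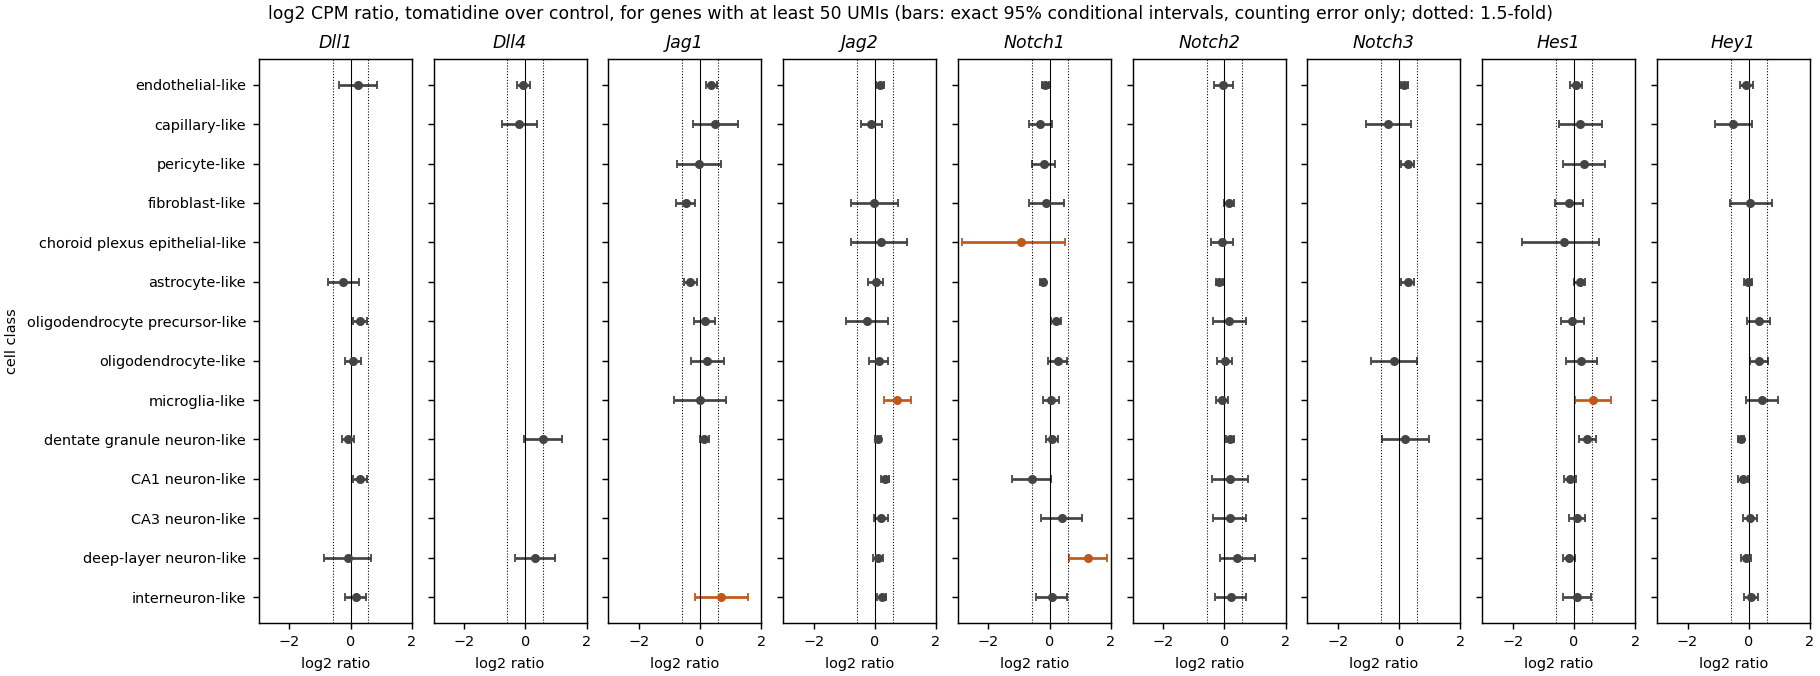
log2 CPM ratio of tomatidine over control (x axis) for each Notch gene (panels) in each class (rows), where the gene had at least 50 UMIs, with exact 95% intervals for counting error and dotted lines at 1.5-fold. Orange marks the 5 called pairs, of which Jag2 and Hes1 in microglia-like cells and Notch1 in deep-layer neuron-like cells have bars that leave out 0; most other points lie near 0.

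The pathway around these genes was read from a list of 75 further genes in 6 roles, of which 72 were in the files. In endothelial-like cells 64 of them had at least 50 UMIs, and 1 was called, against the 5.58% given above. It was Snai1, a transcription factor of mesenchymal change, at 8.59 and 15.1 CPM (29 and 58 UMIs, log2 ratio 0.81). The median log2 ratio of the 64 was 0.02, beside 0.03 for all genes tested. One gene per role, picked by its CPM only to choose an example and not as an order of levels, is given here. It was Egfl7, a secreted vessel protein that can bind Notch, among the other ligands (604 and 743 CPM), Eogt among the glycosylation enzymes (228 and 234 CPM), and Mib1, the ubiquitin ligase that lets ligands be pulled in, in the turnover role (255 and 253 CPM). It was Aph1a, a gamma-secretase subunit, among the release proteases (192 and 199 CPM), Ctbp1, a co-repressor, in the nuclear complex (281 and 282 CPM) and Id3 among the targets (743 and 830 CPM).

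In capillary-like cells 26 pathway genes were measurable, 4 were called higher and 2 lower, beside the 10.7% of all genes called there. The higher ones were Numb, which draws Notch into the cell (97.9 and 182 CPM, log2 ratio 0.90), Snw1 (0.83), Crebbp (0.74) and Fbxw7, which marks active Notch for decay (0.59). The lower ones were the co-repressors Hdac1 (138 and 78.9 CPM, −0.81) and Ncor1 (−0.59). The intervals of Fbxw7, Crebbp and Ncor1 included 0.

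In pericyte-like cells 17 pathway genes were measurable, 4 were called higher and 2 lower, beside the 19.1% of all genes called there. Nrarp was at 147 and 252 CPM (log2 ratio 0.78, 0.08 to 1.51) and Mib1 at 158 and 258 CPM (0.71, 0.02 to 1.41), with Dtx4 (0.79) and Id3 (0.60) also higher, and the acetyltransferase Ep300 (−0.96) and Cntn1 (−0.70) lower; the intervals of Dtx4, Id3 and Cntn1 included 0. Nrarp was also 8.06-fold (3.90 to 15.9) higher in arterial-like than in capillary-like cells with both libraries summed, on 14 and 27 UMIs. The control library alone gave 2.06-fold (0.048 to 14.2), on 1 arterial-like UMI. The tomatidine library gave 10.6-fold (4.68 to 23.5), on 13 arterial-like UMIs. This fold was not computed with other ways of drawing the zones. Heyl, the target that followed Notch3 over the classes, was not called, at 646 and 605 CPM (−0.10, −0.48 to 0.28). In astrocyte-like cells 66 were measurable and 0 were called, among them Lfng (309 and 318 CPM), the target Hes5 (132 and 121 CPM) and Dner, a Notch-binding protein (215 and 248 CPM). The astrocyte-like Hes5 level was 0.62-fold (0.58 to 0.67) that of oligodendrocyte precursor-like cells with both libraries summed.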

How the data were processed

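The authors prepared fixed cells from frozen hippocampus with a probe-based 10x kit, used the mm10 build, and the deposited values are UMI counts per gene and cell, whole numbers without normalization; per the labels Cell Ranger 8.0.0 was used, while the matrix header names 7.1.0. From these counts, cells with at least 500 UMIs, over 250 genes, a log10 genes to log10 UMIs ratio above 0.8 and under 20% mitochondrial UMIs were kept, and the 2% with the highest Scrublet scores were removed per library, since Scrublet itself called 0 and 2 cells. Cells were clustered in Seurat 5.3.0 (2000 variable genes, RPCA, 30 components, resolution 0.8) without 85 genes, namely the Notch, pathway and sex-linked genes. A limit on the marker UMIs of the screened classes (0.3 of each class's own share) was set on endothelial-like cells after seeing them, before re-clustering. Neurons of a thalamic-like class and unnamed clusters were not compared. UMIs were summed per class and library in Python 3.11.15 with scipy 1.17.1 and divided by all UMIs of the class; edgeR 4.0.16 gave TMM factors as an alternative. Intervals are exact at 95%. The pooled libraries gave 279525565 and 259059908 UMIs. The members and lists were chosen with earlier results of these data known. Gene positions are from GENCODE vM21. The text names all members, the pathway genes past 1.5-fold in endothelial-like, capillary-like, pericyte-like or astrocyte-like cells (arterial-like and venous-like sums were not compared between groups), the highest gene per role in endothelial-like cells and the 3 genes most correlated with each member among those with at least 200 UMIs, of which 1 is not reported here.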

Additional observations from a re-analysis of the deposited data

Results flagged for a closer look

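A signal outside the compared classes was seen in the smooth muscle-led cells of the endothelial-like cluster, 12 in the control and 30 in the tomatidine library. Jag1 was at 259 CPM (53 UMIs) and 530 CPM (233 UMIs) in them, a log2 ratio of 1.03 (0.60 to 1.49), which lay above the control library beyond counting error. Jag2 was at 357 CPM (73 UMIs) and 485 CPM (213 UMIs), a log2 ratio of 0.44 (0.05 to 0.84). Acta2 was at 1913 and 4848 CPM in the same cells, and Gkn3, an arterial gene, at 254 and 619 CPM. The venous transporter Slc38a5 went the other way, at 724 and 84.2 CPM, and the endothelial gene Cldn5 was at 2799 and 2526 CPM. The part of these genes' RNA in the result was not tested. No share of all genes past 1.5-fold was computed for these cells.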

How the results depend on the processing

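The 5 called pairs of member and class became 14 with the mean over cells of each cell's CPM and 8 without doublet removal. They became 2 of 74 under both sets of cell thresholds (also at most 6000 genes and under 10% mitochondrial UMIs). With a minimum of 20 UMIs they were 15 of 110, and with no minimum 26 of 125. Under the other 10 settings they numbered 4 to 7. The share over all genes was not computed for these settings. Some of the 10 redrew only endothelial-like classes. The other classes, which hold all 5 called pairs, kept their main sums there, so these pairs could not be lost. The arterial-like over capillary-like log2 difference of Dll4, 1.83, was 0.68 without doublet removal, 0.89 at resolution 1.5 and 0.27 with zones from marker scores, and that of Jag1, 2.70, was 1.75, 1.76 and 0.78. Notch3 in pericyte-like over capillary-like cells, 4.15, was 6.65 without cells holding mural markers, 5.98 and 5.84 at marker limits of 0.4 and 0.5, and 4.66 with no limit; the capillary-like over venous-like difference of Dll4 ran from 2.62 to 3.41. Among called pairs the sign turned for Notch1 in choroid plexus epithelial-like cells (1.07, mean over cells), Notch1 in deep-layer neuron-like cells (−0.44, both thresholds) and Jag1 in interneuron-like cells (−0.63 and −1.01). Ratios that were not called also turned sign and left their interval, among them, without cells holding mural markers, Jag2 (0.17 to −0.30) and Notch3 (0.17 to −2.22) in endothelial-like cells, with the mean over cells Hey1 in microglia-like cells (0.44 to −0.18), and under both thresholds Notch2 in deep-layer neuron-like cells (0.42 to −0.38). The cause was not tested. Of 698 alternative values of 94 further results (93 member ratios and 1 share), 644 stayed within the counting interval of the reported value, 50 moved out of it and 4, given above, reversed a called direction. The marker limits, the endothelial-like cells under the limit and the unlimited subclusters were alternatives chosen after seeing the data. Where a setting gave no arterial-like or pericyte-like class, it has no value for that class's differences and ratios. In the counts of called pairs, a class that a setting did not give kept its main sums. No paired analysis was possible because each group is 1 library. The depth limits zones: 1 UMI was worth 101 CPM in control arterial-like cells.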
